A study of Homo sapiens with 11 samples.

Results

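Metallothioneins and the genes that set cellular zinc were followed through hypoxia in RWPE1 cells. The genes were chosen by symbol: the metallothioneins MT2A, MT1X, MT1E, MT1G, MT1F and MT1M, the transcription factor MTF1, the zinc exporter SLC30A1 and the zinc importer SLC39A10. These are 9 of the 60676 genes in the count table, and all 9 had enough counts to be tested.

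Metallothioneins are small, cysteine-rich proteins that bind zinc and copper and buffer the free metal in the cytosol. MTF1 senses zinc through its zinc fingers and binds metal response elements in the promoters of metallothionein genes and of SLC30A1. Most SLC30 family proteins (ZnT) move zinc out of the cytosol, and most SLC39 family proteins (ZIP) move it in. Prostate epithelium is known for its high zinc content, which is a property of the secretory luminal cells.

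RWPE1 is a line of adult human prostate epithelium immortalized with human papillomavirus. Cells kept in normoxia (0 h, 3 libraries, untreated) were compared with cells kept at 1% oxygen for 6 h (3 libraries), 12 h (3 libraries) and 24 h (2 libraries). All groups grew in serum-free keratinocyte medium with bovine pituitary extract and EGF, and the medium of the hypoxic cells also held 10 mM HEPES buffer, so oxygen and HEPES cannot be told apart. This is a single line, and no source used here ties the replicates to separate cultures, so p-values measure the spread between these libraries, which may be technical.

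The libraries held 27496009 to 49488345 counts assigned to genes. The share of counts from the mitochondrial genome was 10.2% to 10.3% at 0 h, 4.30% to 6.78% at 6 h and 12 h, and 1.74% and 0.369% in replicates 1 and 2 at 24 h. Replicate 2 at 24 h thus stands apart, and its factor from the trimmed mean of M-values (TMM), which scales library size, was the lowest, 0.539 against 0.851 to 1.32 in the others. All 8 hypoxia genes used to check the labels, among them CA9, were higher at each time. Basal epithelial markers were abundant (6 genes, summed level 12084 to 56636 CPM, counts scaled to a common library size with TMM). They did not move together: 3, 4 and 4 of the 6 were called higher at 6 h, 12 h and 24 h, and 2 lower at each time. TP63 stood at 218 to 259 CPM at 0 h and at 67.0 to 143 in hypoxia, and KRT15 at 250 to 341 and 51.7 to 164. Of the luminal markers, KLK3 was at 0 in every library and KLK2 had at most 3 counts in any. Markers of stroma, endothelium and immune cells (10 genes) summed to 56.9 to 103 CPM up to 12 h and to 166 and 196 at 24 h. VIM, which epithelial cells can also express, made up 137 and 165 CPM of the 24 h sums, against 12.3 to 12.98 at 0 h, while COL1A1 went from 47.1 to 60.5 CPM at 0 h to 27.7 and 30.2 at 24 h and was called lower. Of the 10 genes 4 were tested, with 1 called higher and 2 lower at 24 h, and their part in the results was not tested. In bulk RNA, fewer cells of a type and less RNA per cell cannot be told apart. With TMM, 47.6%, 47.2% and 48.8% of all genes called at 6 h, 12 h and 24 h were higher. With library size alone these shares were 27.6%, 20% and 16.4%, and the median log2 fold change of all genes was -0.32, -0.50 and -0.97.

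The metallothionein genes lie together on chromosome 16 (GRCh38). MT2A spans chr16:56608584-56609497, MT1E chr16:56625475-56627112, MT1M chr16:56632659-56633981, MT1F chr16:56657731-56660698 and MT1X chr16:56682470-56684196, all on the plus strand. MT1G lies at chr16:56666730-56668065 on the minus strand. MTF1 (chr1:37809574-37859592, minus strand), SLC30A1 (chr1:211571568-211579161, minus strand) and SLC39A10 (chr2:195575977-195737702, plus strand) lie elsewhere. None of the 9 genes overlaps an exon of a gene on the opposite strand.

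The coding sequences of MT2A and MT1X, the most abundant pair, show how alike the paralogs are. Both are 186 bases long, and capitals mark the 14 positions at which they differ (92.5% identity), with a longest identical run of 63 bases.
MT2A: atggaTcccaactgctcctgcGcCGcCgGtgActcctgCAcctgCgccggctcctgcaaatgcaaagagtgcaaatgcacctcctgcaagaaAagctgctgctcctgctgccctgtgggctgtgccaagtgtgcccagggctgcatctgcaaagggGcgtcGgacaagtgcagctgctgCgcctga
MT1X: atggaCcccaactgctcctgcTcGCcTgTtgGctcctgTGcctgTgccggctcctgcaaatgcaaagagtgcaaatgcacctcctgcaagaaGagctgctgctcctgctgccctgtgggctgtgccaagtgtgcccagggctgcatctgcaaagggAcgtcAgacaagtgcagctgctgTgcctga

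Such likeness can make a read match more than 1 gene. Among windows of 75 bases, the length of the sequencing run, 0 of 327 in the canonical MT2A transcript recurred exactly in a transcript of another locus. MT1F (0 of 351) and MT1M (0 of 324) had none either. For MT1E it was 11 of 672 windows (1.64%), for MT1G 22 of 336 (6.55%) and for MT1X 27 of 330 (8.18%, shared with MT1G and MT1XP1). Among windows of 36 bases, the shortest read kept after trimming, 21.3% of those in MT2A, 21.95% in MT1X, 17.2% in MT1E, 27.2% in MT1G, 11.03% in MT1F and 13.5% in MT1M recurred elsewhere. How the authors' counting treated such reads is not given in the sources used here, so values of single metallothionein genes are uncertain. The share of such windows does not bound the error of a scarce gene that shares windows with an abundant one. Of the 711 36-base windows of MT1E (2717 to 10501 counts per library), 71 recurred in MT1M (0 to 14 counts). A summed metallothionein level over the 13 protein-coding and similar rows (MT1A, MT1B, MT1E, MT1F, MT1G, MT1H, MT1HL1, MT1L, MT1M, MT1X, MT2A, MT3 and MT4) does not depend on how reads were split among them and is given beside the single genes. Reads dropped for matching several genes, if any were, are outside this sum. So are reads given to pseudogenes such as MT2P1, in which 48 of the 36-base windows of MT2A recurred. MT1X also shares 18.6% of its exonic bases with ENSG00000259827 on the same strand, which was at 0 in all 11 libraries.

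The promoters are shown because MTF1 acts through short elements in them. They are the 250 bases before the RefSeq start (GRCh38.p14), 5′ to 3′ on the strand of the gene. Capitals mark metal response element cores, searched as TGCACNC and TGCGCNC on both strands. The table used had entries for 5 of the 9 genes; MT1E, MT1F, MT1G and MT1M had none.
MT2A (chr16:56608334-56608583, plus strand): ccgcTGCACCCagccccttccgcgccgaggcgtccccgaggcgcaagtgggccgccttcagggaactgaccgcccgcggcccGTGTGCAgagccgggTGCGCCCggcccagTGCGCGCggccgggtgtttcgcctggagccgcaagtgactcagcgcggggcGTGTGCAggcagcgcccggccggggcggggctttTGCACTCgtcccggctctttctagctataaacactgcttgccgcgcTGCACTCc
MT1X (chr16:56682220-56682469, plus strand): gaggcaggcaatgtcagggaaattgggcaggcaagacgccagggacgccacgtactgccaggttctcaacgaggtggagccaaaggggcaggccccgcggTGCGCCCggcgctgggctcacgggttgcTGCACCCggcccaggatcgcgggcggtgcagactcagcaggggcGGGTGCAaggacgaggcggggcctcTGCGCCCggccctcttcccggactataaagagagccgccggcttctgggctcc
SLC30A1 (chr1:211579162-211579411, minus strand): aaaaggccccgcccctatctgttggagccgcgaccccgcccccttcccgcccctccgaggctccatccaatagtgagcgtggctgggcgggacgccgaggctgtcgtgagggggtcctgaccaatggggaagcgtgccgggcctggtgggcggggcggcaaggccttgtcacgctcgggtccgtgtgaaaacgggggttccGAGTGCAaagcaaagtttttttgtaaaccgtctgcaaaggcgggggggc

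The MT2A window held 7 cores, the MT1X window 4 and the SLC30A1 window 1. The MTF1 window and both SLC39A10 windows held 0. Over all 35097 promoters of that length, 24.8% held at least 1 core, 0.368% at least 4 and 0.0313% at least 7. Hypoxia response element cores (ACGTG and GCGTG, both strands) numbered 1 for MT2A, 1 for MT1X, 3 for SLC30A1, 2 for MTF1 and 1 in each SLC39A10 window, and 43.2% of all promoters held at least 1. In MT2A the GCGTG at 90 to 86 bases before the start overlaps the metal response element core at 88 to 82. A match is a stretch of letters and not a measured site.

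Against 0 h, 6 of the 9 genes were called at 6 h, all higher, where 25.1% of all 19981 tested genes were called higher, 27.7% lower and 52.8% in either direction. A gene was called when its p from the quasi-likelihood test of edgeR, adjusted by Benjamini-Hochberg across the whole table (below, the edgeR adjusted p), was under 0.05. At 12 h, 7 were called, 6 higher (24.2% of all genes) and 1 lower (27.1%), with 51.2% of all genes called in either direction. At 24 h, 8 were called, 6 higher (29.9%) and 2 lower (31.3%), with 61.2% of all genes called. The median log2 fold change of the 9 genes was 0.89, 0.92 and 1.23 at 6 h, 12 h and 24 h, beside medians of -0.0021, -0.033 and -0.065 over all genes. The 6 h count was 3 without replicate 1 or 3 at 0 h or without replicate 3 at 6 h (44% to 48.8% of all genes). These 3 comparisons share the 0 h libraries.

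**Figure D1:**
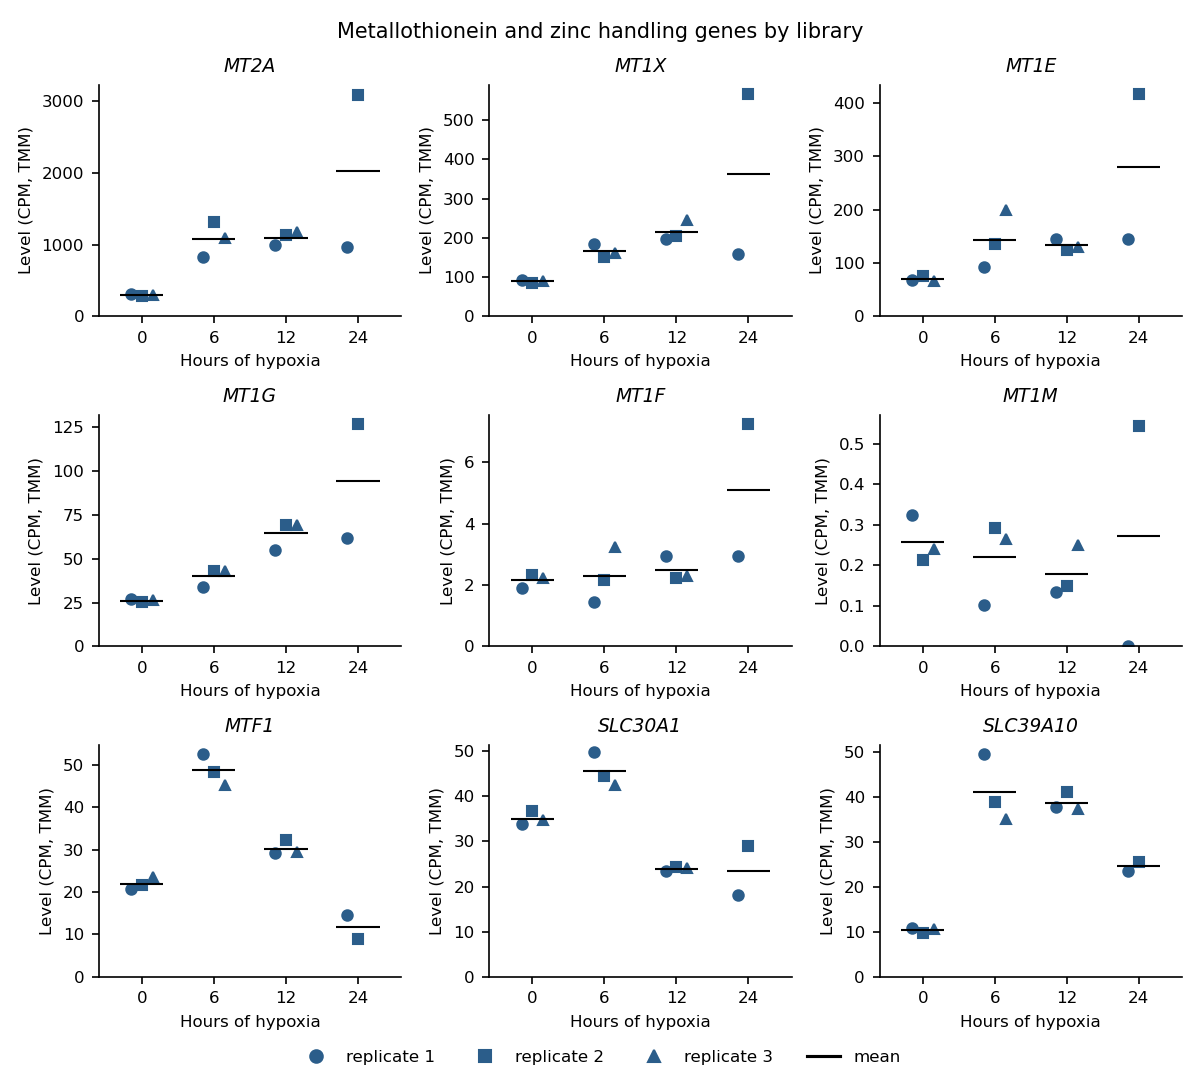
Level of each of the 9 genes in every library (y axis, CPM on TMM-scaled library sizes, linear from 0) at 0, 6, 12 and 24 h of hypoxia (x axis). Points are libraries, their shape gives the replicate and the line is the mean. MT2A sits at 289 to 313 at 0 h and at 825 or more in every hypoxic library, and replicate 2 at 24 h is the highest library for all 6 metallothioneins.

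MT2A, the most abundant metallothionein here, was higher at every hypoxic time. Its level at 0 h was 313, 289 and 303 CPM. At 6 h it was 825, 1309.8 and 1091 CPM. At 12 h it was 990.3, 1138 and 1169 CPM, and at 24 h 969 and 3094 CPM. Every hypoxic library lay above every normoxic one, and of the 24 h pair replicate 1 lay within the 6 h and 12 h range and replicate 2 above it. The log2 fold change was 1.83 ± 0.33 (SE; edgeR adjusted p = 0.00058) at 6 h. It was 1.87 ± 0.33 (edgeR adjusted p = 0.000615) at 12 h and 2.75 ± 0.36 (edgeR adjusted p = 4.11e-05) at 24 h. Without replicate 2 the 24 h value was 1.66. Leaving out 1 of the 2 libraries at 24 h leaves a single library, and the spread then comes from the other times. For such 24 h values only the size of the change is given, here and below. The exact permutation test (two-sided, on log2 CPM) gave p = 0.1 at 6 h and at 12 h, the smallest that 3 against 3 allows, as for every gene below whose 3 libraries did not overlap.

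MT1X, a broadly expressed metallothionein, stood at 93.1, 84.7 and 89.6 CPM at 0 h. At 6 h it was 184, 152 and 162 CPM, at 12 h 196, 204 and 245 CPM, and at 24 h 158 and 567 CPM. No hypoxic library overlapped with 0 h, and the 24 h pair differed from each other more than any other pair of one time point. On the log2 scale it rose by 0.89 ± 0.32 (edgeR adjusted p = 0.0332) at 6 h, and this call was lost without any one of the 0 h or 6 h libraries (edgeR adjusted p = 0.0568 to 0.0956). It rose by 1.27 ± 0.32 (edgeR adjusted p = 0.00619) at 12 h and by 2.02 ± 0.36 (edgeR adjusted p = 0.000362) at 24 h, the latter 0.81 without replicate 2.

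MT1E, also a zinc and copper binder, stood at 69.0, 75.97 and 66.4 CPM at 0 h. At 6 h it was 92.8, 135 and 199 CPM, at 12 h 146, 125 and 130.1 CPM, and at 24 h 145 and 417 CPM. By these TMM-scaled levels the 6 h libraries spread the most among the triplicates, though none overlapped with 0 h. The log2 fold change was 1.01 ± 0.33 (edgeR adjusted p = 0.0199) at 6 h, 0.92 ± 0.33 (edgeR adjusted p = 0.0317) at 12 h and 1.99 ± 0.36 (edgeR adjusted p = 0.000444) at 24 h. The 6 h call was lost without replicate 1 or 3 at 0 h or replicate 3 at 6 h (edgeR adjusted p = 0.0592, 0.0647 and 0.105). The 12 h call was lost without any one of the 0 h or 12 h libraries (edgeR adjusted p = 0.0609 to 0.0921). Without replicate 2 the 24 h value was 1.02.

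MT1G, another zinc-binding member of the cluster, stood at 27.0, 25.4 and 26.3 CPM at 0 h. At 6 h it was 33.9, 43.4 and 42.9 CPM, at 12 h 55.1, 69.3 and 69.4 CPM, and at 24 h 61.8 and 127 CPM. The 0 h, 6 h and 12 h libraries did not overlap with each other. MT1G rose, on the log2 scale, by 0.61 ± 0.22 (edgeR adjusted p = 0.0326) at 6 h, 1.30 ± 0.22 (edgeR adjusted p = 0.000466) at 12 h and 1.85 ± 0.24 (edgeR adjusted p = 3.94e-05) at 24 h. The 6 h call was lost without replicate 1, 2 or 3 at 0 h, replicate 2 or 3 at 6 h, or replicate 2 at 12 h (edgeR adjusted p = 0.0519 to 0.0952). Without replicate 2 the 24 h value was 1.22.

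MT1F was scarce, with 42 to 170 counts per library. It stood at 1.92, 2.32 and 2.24 CPM at 0 h, 1.44, 2.17 and 3.22 CPM at 6 h, 2.94, 2.22 and 2.28 CPM at 12 h, and 2.95 and 7.25 CPM at 24 h. The 6 h and 12 h libraries overlapped with 0 h, and the log2 fold changes were 0.10 ± 0.34 (edgeR adjusted p = 0.821) and 0.20 ± 0.34 (edgeR adjusted p = 0.645). Both had the opposite sign with library size alone (-0.22 and -0.27). At 24 h MT1F was called higher by 1.23 ± 0.37 (edgeR adjusted p = 0.0123). This value rested on replicate 2, without which it was 0.43. MT1M was nearly absent, at 8 to 14 counts at 0 h, 3 to 14 at 6 h, 4 to 11 at 12 h and 0 and 10 at 24 h. With all libraries it was not called at any time. At 24 h it was -6.28 without replicate 2, which left only the library with 0 counts, and 1.00 without replicate 1.

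The summed metallothionein level followed MT2A, which made up most of it. It was 506, 479 and 489 CPM at 0 h, 1141, 1650.2 and 1506 CPM at 6 h, 1396, 1544 and 1620.3 CPM at 12 h, and 1345 and 4232 CPM at 24 h. As a share of all counts assigned to genes, which is scaling by library size alone, this was 0.0629% to 0.0665% at 0 h. It was 0.120% to 0.170% at 6 h, 0.127% to 0.153% at 12 h, and 0.114% and 0.228% in replicates 1 and 2 at 24 h. Replicate 1 at 24 h was thus the lowest hypoxic library by this share, and replicate 2 the highest. The log2 fold change was 1.54 ± 0.32 (edgeR adjusted p = 0.00154) at 6 h, 1.63 ± 0.32 (edgeR adjusted p = 0.00127) at 12 h and 2.51 ± 0.35 (edgeR adjusted p = 6.83e-05) at 24 h. Without replicate 2 the 24 h value was 1.43.

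**Figure D2:**
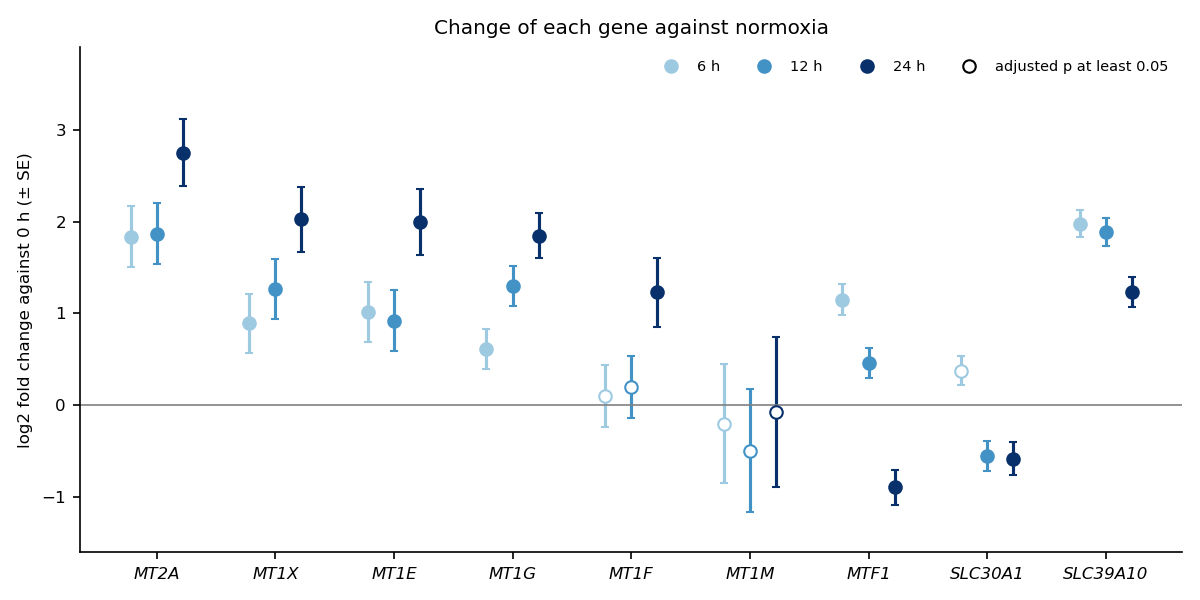
Log2 fold change against 0 h (y axis) of each of the 9 genes (x axis) at 6, 12 and 24 h, with bars of 1 SE from edgeR's quasi-likelihood fit. Open points have an adjusted p of at least 0.05. MT2A reaches 2.75 at 24 h, MTF1 goes from 1.15 at 6 h to -0.89 at 24 h, and MT1M has the widest bars.

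The make-up of the metallothionein counts also differed. MT2A held 61.9%, 60.3% and 61.9% of the summed counts at 0 h. It held 72.2%, 79.4% and 72.4% at 6 h, 70.9%, 73.7% and 72.2% at 12 h, and 72.1% and 73.1% at 24 h. No hypoxic library overlapped with 0 h (exact permutation test, two-sided, p = 0.1 at each time, the smallest possible, over 18 comparisons of within-library ratios). The share of MT1X was 18.1% ± 0.4 (SD, n = 3) at 0 h and 12.0% ± 3.6 (n = 3), 14.1% ± 1.0 (n = 3) and 12.6% ± 1.2 (n = 2) at 6 h, 12 h and 24 h. That of MT1E was 14.4% ± 1.3 at 0 h and 9.84% ± 2.92, 8.85% ± 1.37 and 10.3% ± 0.6 at the later times. That of MT1G was 5.34% ± 0.04, then 2.81% ± 0.17, 4.24% ± 0.27 and 3.80% ± 1.12. These shares also lay apart from 0 h in every hypoxic library.

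**Figure D3:**
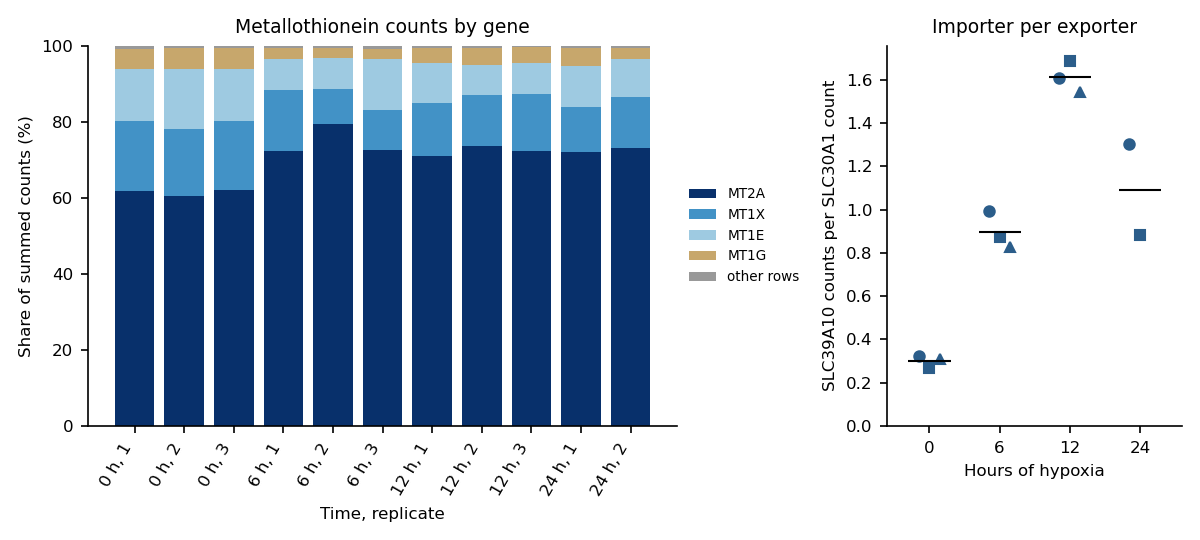
Left, share of the summed metallothionein counts (y axis, %) held by MT2A, MT1X, MT1E, MT1G and the other rows in each library (x axis, time and replicate). Right, SLC39A10 counts per SLC30A1 count (y axis) in each library by time (x axis, hours), with replicates 1, 2 and 3 as circle, square and triangle and the mean as a line. MT2A holds 60.3% to 61.9% at 0 h and 70.9% to 79.4% in hypoxia, and the ratio on the right goes from 0.267 to 0.322 at 0 h to 1.54 to 1.69 at 12 h.

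The family as a whole had 21 listed genes, of which 19 had at least 1 count and 14 were tested. At 6 h, 12 h and 24 h, 10, 6 and 11 of the 14 were called higher and 0 lower (71.4%, 42.9% and 78.6%), with medians of 0.95, 1.03 and 1.65 on the log2 scale. Over all genes 25.1%, 24.2% and 29.9% were called higher and 52.8%, 51.2% and 61.2% in either direction, so the 12 h share of the family was above the first and below the second. The 6 h count was 4 to 6 without replicate 1, 2 or 3 at 0 h or replicate 2 or 3 at 6 h (44% to 48.8% of all genes). MT1L, annotated as a gene or a pseudogene, went from 24 to 37 counts at 0 h to 115 to 344 at the hypoxic times, and rose by 2.94, 2.61 and 4.004 on the log2 scale (edgeR adjusted p = 2.46e-05, 7.69e-05 and 3.68e-06). MT2P1, a pseudogene similar to MT2A, rose by 1.75, 1.20 and 2.37 (edgeR adjusted p = 0.00151, 0.0151 and 0.00025), with 1.33 at 24 h without replicate 2 and 1.30 with library size alone, and its 12 h call was lost without replicate 3 at 0 h or replicate 2 at 12 h (edgeR adjusted p = 0.0609 and 0.0565) and with library size alone (0.74, edgeR adjusted p = 0.0585). Of the 36-base windows, 43.9% of those in MT2P1 and 25.2% of those in MT1L recurred in other genes, for MT1L among them MT1E. The 24 h value of MT1L was 2.96 to 4.47 over the alternatives.

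MT3, the growth inhibitory metallothionein of brain, had 1 to 16 counts in any library and was called at 6 h (1.90, edgeR adjusted p = 0.0138) and 24 h (3.16, edgeR adjusted p = 0.000579). MT1H, with 3 to 34 counts, was called at 6 h (1.89, edgeR adjusted p = 0.0178). MT1JP was called at 6 h (0.87) and 24 h (1.02), and so was MT1P1 (1.21 and 1.41), while MT1XP1 was called at 24 h (1.45). Each call of these last 4 genes was lost without at least 1 of the libraries compared, and those of MT1JP, MT1P1 and MT1XP1 also ended with library size alone (edgeR adjusted p = 0.104 to 0.934). Without replicate 2 at 24 h the values were 0.55 for MT1JP, 0.64 for MT1P1 and 0.56 for MT1XP1. Of their 36-base windows, 35.8%, 26.4% and 34.4% recurred in other genes. MT1A (8 to 51 counts) was not called. MT1P3 (1 to 13 counts), MT1HL1, MT4, MT1DP and MT1IP were too scarce to test, and MT1B and MT1CP were at 0 in every library.

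MTF1, which switches metallothionein genes on when zinc is bound, rose early and was below normoxia at 24 h. It stood at 20.7, 21.7 and 23.4 CPM at 0 h and at 52.5, 48.3 and 45.3 CPM at 6 h. At 12 h it was 29.1, 32.3 and 29.4 CPM, and at 24 h 14.7 and 8.88 CPM. No time point overlapped with another by these TMM-scaled levels. The log2 fold change was 1.15 ± 0.17 (edgeR adjusted p = 0.000117) at 6 h. At 12 h it was 0.46 ± 0.17 (edgeR adjusted p = 0.0331), a call lost without any one of the 0 h or 12 h libraries (edgeR adjusted p = 0.0555 to 0.132), and with library size alone the value was -0.0021. At 24 h it fell by 0.89 ± 0.19 on the log2 scale (edgeR adjusted p = 0.00165), and without replicate 1 by 1.36.

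Between hypoxic times, MTF1 fell by 0.69 ± 0.17 from 6 h to 12 h (edgeR adjusted p = 0.0359) and by 1.36 ± 0.20 from 12 h to 24 h (edgeR adjusted p = 0.00143). The call from 6 h to 12 h was lost without any one of the 0 h or 12 h libraries or without replicate 1 or 2 at 6 h (edgeR adjusted p = 0.0646 to 0.155). There were 20.9 to 24.4 metallothionein counts per MTF1 count at 0 h, 21.7 to 34.1 at 6 h, 47.8 to 55.2 at 12 h, and 91.6 and 476 at 24 h. The 6 h libraries overlapped with 0 h in this ratio (exact permutation test, two-sided, p = 0.3), and the 12 h and 24 h libraries did not (p = 0.1 each by the same exact test). Across the 11 libraries the level of MT2A had a Pearson r of 0.93 with MT1X, 0.92 with MT1E and 0.91 with MT1G, and of -0.11 with MTF1. The libraries share the time course and the scaling, so these r are a description.

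SLC30A1 (ZnT1), the exporter of the plasma membrane, stood at 33.8, 36.8 and 34.7 CPM at 0 h and 49.8, 44.5 and 42.5 CPM at 6 h. At 12 h it was 23.4, 24.3 and 24.2 CPM and at 24 h 18.1 and 28.9 CPM. By these TMM-scaled levels the 6 h libraries lay above and the 12 h and 24 h libraries below all 0 h libraries. The log2 fold change at 6 h was 0.38 ± 0.16 (edgeR adjusted p = 0.0618), which did not pass. Of 21 alternatives 5 called it and 16 did not. It was 0.35 and 0.36 without replicate 1 or 2 at 24 h, and 0.058 with library size alone (edgeR adjusted p = 0.756). SLC30A1 fell by 0.55 ± 0.16 at 12 h (edgeR adjusted p = 0.0125) and by 0.58 ± 0.18 at 24 h (edgeR adjusted p = 0.0151). The latter was a fall of 0.33 without replicate 1 and of 0.97 without replicate 2. The 12 h and 24 h values with library size alone were -1.02 and -1.57 (edgeR adjusted p = 0.000125 and 1.15e-05). From 6 h to 12 h it fell by 0.93 ± 0.16 (edgeR adjusted p = 0.0102), a call lost without replicate 2 or 3 at 12 h (edgeR adjusted p = 0.0569 and 0.0663). From 12 h to 24 h the difference was -0.03 ± 0.18 (edgeR adjusted p = 0.917).

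SLC39A10 (ZIP10), an importer of the plasma membrane, had the smallest adjusted p of the 9 genes at 6 h and 12 h. It stood at 10.9, 9.81 and 10.7 CPM at 0 h and 49.6, 38.9 and 35.1 CPM at 6 h. At 12 h it was 37.6, 41.0 and 37.3 CPM and at 24 h 23.6 and 25.5 CPM. By these TMM-scaled levels every hypoxic library was above 0 h, and both 24 h libraries were below every 6 h and 12 h library. It rose by 1.98 ± 0.15 (edgeR adjusted p = 1.33e-06) at 6 h, by 1.89 ± 0.15 (edgeR adjusted p = 2.95e-06) at 12 h and by 1.23 ± 0.16 (edgeR adjusted p = 4.14e-05) at 24 h. With library size alone the 24 h value was 0.30 (edgeR adjusted p = 0.21). From 12 h to 24 h SLC39A10 fell by 0.66 ± 0.16 (edgeR adjusted p = 0.0125).

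The ratio of SLC39A10 to SLC30A1 counts needs no scaling between libraries. It was 0.322, 0.267 and 0.307 at 0 h. It was 0.995, 0.875 and 0.825 at 6 h, 1.61, 1.69 and 1.54 at 12 h, and 1.30 and 0.881 at 24 h. Every hypoxic library was above 0 h (exact permutation test, two-sided, p = 0.1 at each time, the smallest possible).

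The other zinc transporters were described as families. Of the SLC30 family, 7 of 10 genes were tested. At 6 h, 12 h and 24 h, 1, 0 and 0 of the 7 were called higher and 3, 5 and 6 lower (57.1%, 71.4% and 85.7% in either direction, against 52.8%, 51.2% and 61.2% of all genes), with medians of -0.40, -0.79 and -0.99. The 6 h share was near that of all genes, of which 27.7%, 27.1% and 31.3% were called lower. SLC30A9, known from mitochondria, stood at 27.3 to 29.1 CPM at 0 h and at 9.32 to 18.9 CPM in hypoxia, and fell by 1.24, 0.83 and 1.06 (edgeR adjusted p = 0.000753, 0.00982 and 0.00426), the last by 1.66 without replicate 1 and 0.70 without replicate 2. SLC30A5, of the early secretory pathway, stood at 42.5 to 44.5 CPM at 0 h and at 18.2 to 31.8 CPM in hypoxia, and fell by 0.93, 0.87 and 0.78 (edgeR adjusted p = 0.0013, 0.00229 and 0.0073), the last by 0.50 without replicate 1 and 1.23 without replicate 2. SLC30A9 was at -1.30 and -1.89 and SLC30A5 at -1.34 and -1.78 at 12 h and 24 h with library size alone.

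Of the SLC39 family, 12 of 14 genes were tested. At 6 h, 12 h and 24 h, 6, 5 and 7 of the 12 were called higher and 1, 0 and 2 lower, with medians of 0.48, 0.51 and 0.73. In either direction these are 58.3%, 41.7% and 75% of the family, near the 52.8% of all genes at 6 h, below the 51.2% at 12 h and above the 61.2% at 24 h. By direction, 25.1%, 24.2% and 29.9% of all genes were called higher and 27.7%, 27.1% and 31.3% lower. The 41.7% of the family called at 12 h were all higher, a share above the 24.2% of all genes. Beside SLC39A10, SLC39A14 (ZIP14, a zinc and iron importer) rose by 1.48, 1.04 and 1.28 (edgeR adjusted p = 6.81e-05, 0.000956 and 0.000257), the last by 0.74 without replicate 1. SLC39A6 (ZIP6, the closest relative of ZIP10) rose by 1.37, 1.10 and 1.16 (edgeR adjusted p = 5.87e-06, 3.62e-05 and 2.43e-05). SLC39A3 rose by 0.89, 0.87 and 1.03 (edgeR adjusted p = 0.0118, 0.0146 and 0.00791). Its 12 h call was lost without replicate 2 at 0 h or at 12 h (edgeR adjusted p = 0.0538 and 0.0734). Its 24 h value was 0.32 without replicate 2 and -0.0067 with library size alone. With library size alone the 12 h calls of SLC39A14 (0.57, edgeR adjusted p = 0.118) and SLC39A3 (0.41, edgeR adjusted p = 0.136) and the 24 h calls of SLC39A14 (0.46, edgeR adjusted p = 0.222) and SLC39A6 (0.27, edgeR adjusted p = 0.307) ended, and SLC39A3 at 6 h (0.57) and SLC39A6 at 12 h (0.63) were smaller and still passed. The difference between the families was not tested.

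**Figure D4:**
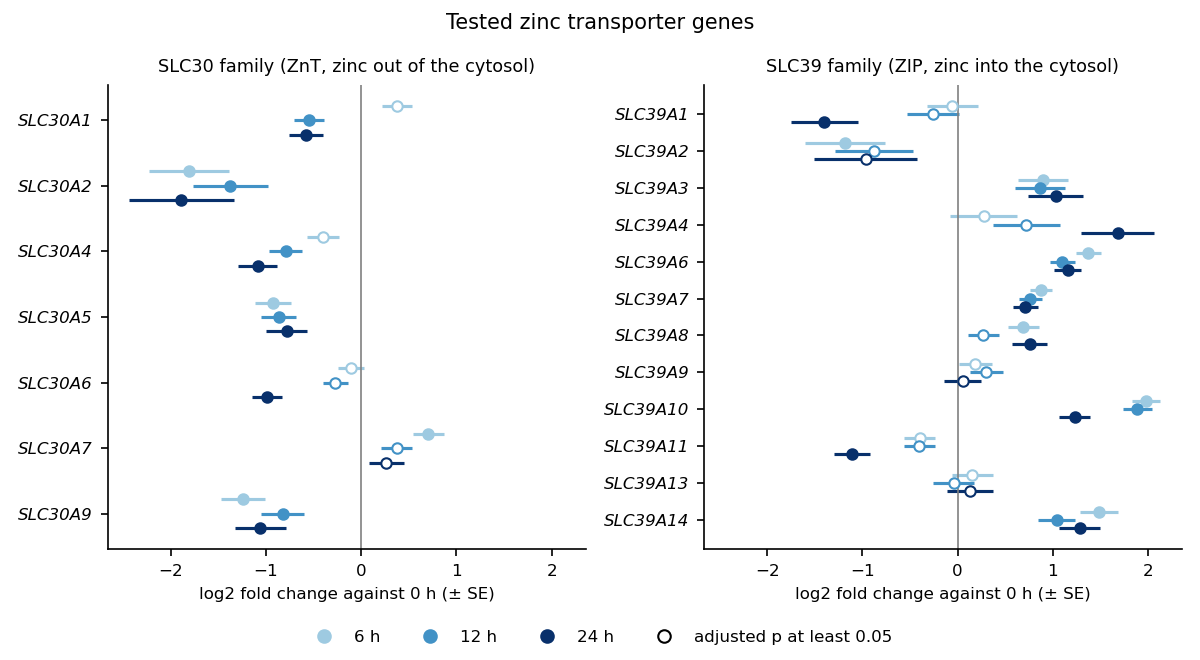
Log2 fold change against 0 h (x axis) at 6, 12 and 24 h of every tested gene of the SLC30 family (left, 7 genes) and the SLC39 family (right, 12 genes), with bars of 1 SE from edgeR's quasi-likelihood fit and open points where the adjusted p is at least 0.05. At 24 h 6 of the 7 genes on the left are called lower, and 7 of the 12 on the right are called higher and 2 lower.

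With MTF1, the zinc list had 25 genes, of which 20 were tested. At 6 h, 12 h and 24 h, 8, 6 and 7 were called higher and 4, 5 and 9 lower. These are 60%, 55% and 80% of the list, near the share of all genes at 6 h and 12 h (52.8% and 51.2%) and above it at 24 h (61.2%). The 12 h total of 11 was 17 with only the 0 h and 12 h libraries fitted, where 69.5% of all genes were called. Of the copper handling list, 10 of 11 genes were tested, with 3, 2 and 4 called higher and 2, 2 and 3 lower (50%, 40% and 70%), against 52.8%, 51.2% and 61.2% of all genes. The 6 h total of 5 was 2 to 3 without replicate 1, 2 or 3 at 0 h or replicate 2 at 6 h (44% to 45.2% of all genes). The 12 h total of 4 was 7 without both 24 h libraries, where 63.4% of all genes were called. SOD1, the copper and zinc superoxide dismutase, rose by 0.92, 0.90 and 1.74 (edgeR adjusted p = 0.0014, 0.0018 and 1.95e-05). COX17, a copper chaperone for cytochrome oxidase, rose by 0.51, 0.73 and 1.43 (edgeR adjusted p = 0.0303, 0.0051 and 5.95e-05), the first call lost without replicate 1, 2 or 3 at 0 h or replicate 3 at 6 h (edgeR adjusted p = 0.0555 to 0.111) and all 3 with library size alone (edgeR adjusted p = 0.0514 to 0.407). ATP7B, a copper exporter, fell by 0.72, 0.81 and 1.62 (edgeR adjusted p = 0.0188, 0.011 and 0.000371), the first call lost without replicate 2 at 0 h or replicate 1 or 2 at 6 h (edgeR adjusted p = 0.0619 to 0.074) and the last with limma-voom and quality weights (-1.56, adjusted p = 0.0889). SOD1 rose by 0.60, 0.43 and 0.73 with library size alone, and ATP7B was then at -1.28 and -2.50 at 12 h and 24 h.

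From 6 h to 12 h, 2 of the 9 genes, MTF1 and SLC30A1, were called, both lower, where 3.07% of all genes were called lower and 4.95% in either direction. The count was 0 or 1 without any one of the 0 h or 12 h libraries or without replicate 1 or 2 at 6 h, and 4 without replicate 1 or replicate 2 at 24 h. In the latter case MT1G (0.69 and 0.70, edgeR adjusted p = 0.00348 and 0.00353) and MT1X (0.37 and 0.39, edgeR adjusted p = 0.0362 and 0.0284) also passed. With all libraries MT1G differed by 0.69 ± 0.22 (edgeR adjusted p = 0.0928) and MT1X by 0.37 ± 0.32 (edgeR adjusted p = 0.549), and the summed metallothionein level by 0.09 ± 0.31 (edgeR adjusted p = 0.91). Of all genes, 0.306% to 3.15% were called in the cases where the count of the 9 was 0 or 1. Without both 24 h libraries, 4 of the 9 and 19.2% of all genes were called.

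From 12 h to 24 h, 3 of the 9 genes were called, MTF1 and SLC39A10 lower (13.3% of all genes) and MT1E higher (15.1%), with 28.4% of all genes called in either direction. Leaving out 1 of the 24 h libraries sets a single library against the 12 h libraries, so no count is given for it. MT1E differed by 1.07 ± 0.36 (edgeR adjusted p = 0.0408). The call was lost without any one of the 0 h or 12 h libraries or without replicate 2 at 6 h (edgeR adjusted p = 0.0575 to 0.115). Without replicate 2 at 24 h the value was 0.10. The difference was 0.89 ± 0.35 for MT2A (edgeR adjusted p = 0.0773) and 0.88 ± 0.35 for the summed level (edgeR adjusted p = 0.075). Without replicate 2 at 24 h both had the opposite sign, -0.20 and -0.19, and without replicate 1 they were 1.46 and 1.45. MT1X (-0.46) and MT1G (-0.08) also had the opposite sign without replicate 2, so the direction of these genes after 12 h depended on which 24 h library was kept.

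Some calls of the 9 genes ended under other settings with all libraries kept. With library size alone these were, beside MTF1 at 12 h and SLC39A10 at 24 h above, MT1G (0.29, edgeR adjusted p = 0.19) and MT1X (0.58, edgeR adjusted p = 0.0681) at 6 h, MT1E (0.45, edgeR adjusted p = 0.18) at 12 h and MT1F (0.19, edgeR adjusted p = 0.617) at 24 h, as well as MTF1 from 6 h to 12 h (-0.83, edgeR adjusted p = 0.10) and MT1E from 12 h to 24 h (0.46, edgeR adjusted p = 0.257). The 6 h calls of MT1G and MT1X and the 12 h calls of MT1E and MTF1 also ended when at least 10 counts in every library were required (edgeR adjusted p = 0.0508 to 0.0937), and that of MTF1 with no filter (0.0645). The 24 h call of SLC30A1 ended when only 0 h and 24 h were fitted (edgeR adjusted p = 0.0629). With 12 h and 24 h alone, those of MTF1, SLC39A10 and MT1E from 12 h to 24 h ended (edgeR adjusted p = 0.0658, 0.0729 and 0.131). In that last fit 0 of all 17807 genes tested were called. limma-voom with quality weights ended the 24 h calls of MT1F and SLC30A1 (adjusted p = 0.119 and 0.0801) and those of SLC39A10 and MT1E from 12 h to 24 h (0.211 and 0.195), and limma-voom without weights ended the last of these (0.0897). With the replicate number as a block, MTF1 from 6 h to 12 h (adjusted p = 0.0673) and MT1E from 12 h to 24 h (0.061) no longer passed in edgeR. The 6 h and 12 h values of MT2A and SLC39A10 passed under all alternatives. The 24 h values of the metallothioneins MT2A, MT1X, MT1E and MT1G passed under all alternatives that kept both 24 h libraries. Their size depended on the scaling. With library size alone the 24 h values were 1.66 for MT2A, 0.92 for MT1X, 0.91 for MT1E, 0.82 for MT1G and 1.41 for the summed level, and the 12 h values of MT1X and MT1G were 0.80 and 0.84. MTF1 was at -1.74 at 24 h, and SLC39A10 at -1.12 from 12 h to 24 h, by the same scaling.

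To compare genes with each other, levels were divided by the length of the canonical transcript (CPM per kilobase). At 0 h the order was MT2A (752 ± 30, SD), MT1X (221 ± 10), MT1E (94.4 ± 6.6), MT1G (64.0 ± 1.9), SLC30A1 (5.96 ± 0.26), MT1F (5.08 ± 0.50), MTF1 (2.77 ± 0.17), SLC39A10 (2.001 ± 0.11) and MT1M (0.651 ± 0.144), and no neighbours were within 1 SD of each other (ranges of the mean ± SD, n = 3). At 6 h SLC39A10 (7.89 ± 1.44) and SLC30A1 (7.74 ± 0.64) could not be told apart by this measure, nor could MTF1 (6.14 ± 0.46) and MT1F (5.36 ± 2.11). At 12 h the same held for MT1E (179 ± 14) and MT1G (158 ± 20), and for SLC30A1 (4.07 ± 0.08) and MTF1 (3.81 ± 0.23). At 24 h, with 2 libraries, most neighbours overlapped, and MT2A (5066 ± 3746) still had the highest mean.

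Among 13952 other genes with a symbol and a mean of at least 1 CPM, those whose log2 CPM over the 11 libraries was most like the summed metallothionein level were RAMP1 (Pearson r = 0.992), BIK (0.992), LY6K (0.989), PRELID1 (0.988) and CLTB (0.987). For MTF1 they were ATXN1L (0.991), NOTCH2 (0.990), FBXW11 (0.988), ZBTB40 (0.987) and MAFG (0.986). For SLC39A10 they were BICD1 (0.990), CPSF6 (0.988), GEMIN5 (0.988), SLC5A3 (0.987) and DDAH1 (0.985). For SLC30A1 they were GXYLT1 (0.974), PHF10 (0.964), PRNP (0.961), TMEM30A (0.956) and SS18L1 (0.953). These values describe 11 libraries of 4 time points.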

How the data were processed

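RNA from RWPE1 cells was sequenced in 11 libraries. The authors trimmed reads with Trimmomatic (reads of at least 36 bases kept), aligned them with STAR to GRCh38 and deposited raw gene counts from featureCounts; the strand and multi-mapping settings are not given in the sources used here. The kit was stranded. Counts were tested as deposited with edgeR 4.0.16 (R 4.3.3): filterByExpr by time point, TMM, glmQLFit and glmQLFTest in 1 fit of all libraries, Benjamini-Hochberg adjustment over 19981 genes, SE as the absolute log2 fold change over the square root of F. Log2 CPM used a prior count of 2. limma 3.58.1 and DESeq2 1.42.0 served as alternatives. The fit was tested on simulated counts. Transcripts, positions and overlaps came from GENCODE release 44 on the same build. The members and lists were chosen with earlier results of these data known. Named genes were all 9 members, all metallothionein rows with counts and, from the zinc and copper lists, up to 4 genes each way called in 1 direction at all 3 times with a mean of at least 1 CPM. The within-library ratios, the coding sequences and the windows of the genes that are not metallothioneins were added after seeing the data.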

Additional observations from a re-analysis of the deposited data

Results flagged for a closer look

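In 5 cases the effect of hypoxia on a gene differed between successive times by edgeR's quasi-likelihood test of the difference itself. MTF1 differed by -0.69 on the log2 scale from 6 h to 12 h and by -1.36 from 12 h to 24 h. SLC30A1 differed by -0.93 from 6 h to 12 h. SLC39A10 differed by -0.66 and MT1E by 1.07 from 12 h to 24 h. For MTF1 from 12 h to 24 h the value was -1.06 to -1.80 when 1 library was left out, and for SLC39A10 -0.62 to -0.73. For MT1E it was 0.10 to 1.61, the lowest without replicate 2 at 24 h, the library with the lowest mitochondrial share (0.369%); the part of that share in the result was not tested.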

How the results depend on the processing

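The counts of the 9 genes against 0 h stayed within 1.5 times under every alternative other than leave-one-out. The values of single genes were counted together with the MT2A share and the SLC39A10 to SLC30A1 ratio. Of these under all alternatives, 1693 kept their direction and side of the threshold or, for the share and ratio, stayed within 1 SD. Of the rest, 123 no longer passed, 52 newly passed and 35 reversed. Of the counts and summed levels, 338 stayed within 1.5 times or on the same side, 48 moved further, 3 newly passed and 3 reversed. Leaving out 1 library gave 3 to 7 of the 9 genes at 6 h and 0 to 4 from 6 h to 12 h. The same gave 4 to 11 metallothionein family genes at 6 h, 9 to 17 zinc genes at 12 h, and 2 to 5 and 3 to 7 copper genes at 6 h and 12 h. Of all genes, 44% to 52.5% were called at 6 h, 41.5% to 51.6% at 12 h and 0.306% to 5.05% from 6 h to 12 h without 1 of the 0 h, 6 h or 12 h libraries. Without both 24 h libraries these shares were 65.6%, 63.4% and 19.2%. Leaving out 1 library gave -0.056 to 0.20 for the summed metallothionein level from 6 h to 12 h and -0.19 to 1.45 from 12 h to 24 h, where the 24 h libraries differ. With limma-voom and quality weights, 4 of the 9 genes were called from 6 h to 12 h and 1 from 12 h to 24 h. The same setting called 7 family genes at 24 h, 17 and 10 zinc genes at 12 h and 24 h, and 9 and 3 copper genes at 12 h and 24 h. Of all genes it called 22.5% from 6 h to 12 h, 5.47% from 12 h to 24 h, 74.6% at 12 h and 30.9% at 24 h. With library size alone, 1 of the 9 was called from 6 h to 12 h (3.45% of all genes) and 6 and 7 family genes at 6 h and 24 h (49.3% and 67.7%). DESeq2 called 5 of the 9 from 12 h to 24 h (33% of all genes) and gave 0.92 for the summed level, now past the threshold. Without a filter these were 6 (15.4% of all genes) and 0.77, and 3 copper genes were called at 6 h (28.5%). With at least 10 counts in every library, 6 family and 3 copper genes were called at 6 h (54.5% of all genes). With only the 2 groups compared, 0 of the 9 were called from 12 h to 24 h, as were 0 of all 17807 genes tested. This setting also called 17 zinc genes and 8 copper genes at 12 h, where 69.5% of all genes were called. Without both 24 h libraries, 4 of the 9 were called from 6 h to 12 h (19.2% of all genes) and 7 copper genes at 12 h (63.4%). The cause of these changes was not tested.

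Directions that reversed were, with library size alone, MT1F at 6 h (-0.22), at 12 h (-0.27) and from 6 h to 12 h (-0.053), MTF1 at 12 h (-0.0021), MT1A at 12 h (-0.35) and 24 h (-0.17), MT1JP at 12 h (-0.14), SLC39A3 at 24 h (-0.0067), the summed level (-0.061) and MT2A (-0.11) from 6 h to 12 h, and MT1G (-0.017) and MT1M (-0.13) from 12 h to 24 h. DESeq2 gave 0.034 for MT1M at 24 h and 0.0037 for SLC30A1 from 12 h to 24 h, and RLE factors 0.0048 for the latter. limma-voom gave -0.93 for MT1M from 12 h to 24 h, with quality weights -1.24, and -0.14 for MT1A at 12 h with quality weights. Leaving out 1 library gave -0.25 to 0.34 for MT1F and -0.38 to 0.088 for MT1M at 6 h, -0.053 to 0.33 for MT1A at 12 h, and -0.38 to 1.51 for MT1A and -6.28 to 1.00 for MT1M at 24 h. From 6 h to 12 h it gave -0.32 to 0.23 for MT1E, -0.14 to 0.45 for MT1F, -0.13 to 0.20 for MT2A and -0.20 to 0.062 for SLC39A10. From 12 h to 24 h it gave -0.080 to 0.95 for MT1G, -5.78 to 1.52 for MT1M, -0.46 to 1.37 for MT1X, -0.20 to 1.46 for MT2A and -0.42 to 0.24 for SLC30A1. The lowest MT1M values set a library at 0 counts against others and depend on the prior count.

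With the replicate number as a block, 6, 7 and 8 of the 9 genes were called at 6 h, 12 h and 24 h, 1 from 6 h to 12 h (MTF1 no longer passed) and 2 from 12 h to 24 h (MT1E no longer passed), while MT1P1 passed at 12 h. Deviations from the group means had r = -0.16 to 0.21 between same-numbered libraries of different times (median -0.049, 2 of 15 pairs over 0.1). Between libraries of different number r was -0.27 to 0.28 (median 0.024, 3 of 30 pairs over 0.1). With 2 or 3 libraries per time this check is too weak to decide whether the numbers mark a pairing.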
